A study of Mus musculus with 18 samples.

Results

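Imprinted genes are transcribed mainly from the copy of the chromosome inherited from a particular parent, and many of them tune the growth of the embryo. Here 9 such genes were followed in O9-1 cells, a neural crest (NC) cell line isolated from the head of mouse embryos: H19, Dlk1, Meg3, Rian, Peg3, Grb10, Plagl1, Mest and Ndn. They were chosen by name, with earlier results of these data known. All 9 were found among the 55335 gene identifiers of the count files, and all 9 passed the filter on low counts in each fit. The data are bulk RNA-seq of 18 libraries of poly(A) RNA, 3 replicates for each of 3 groups at d2.5 and d5 of culture in osteoblast differentiation medium. Ctrl+vehicle cells received scrambled control siRNA and no FGF2, Ctrl+FGF2 cells received control siRNA with FGF2, and Y/T dKD+FGF2 cells received a pool of siRNAs against Yap and Taz (Yap1 and Wwtr1) with FGF2. All groups share the wild-type genotype, the medium and a transfection, and no group combined the knockdown with vehicle. The annotation of the samples lists each day as its own batch, so day and batch cannot be told apart. It does not say whether replicates were separate cultures, and p-values measure the spread between these libraries, which may be technical.

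Imprinting rests on DNA methylation at imprinting control regions, set in the germ line, which silences a gene or a noncoding RNA on the maternal or the paternal chromosome. As a broad rule, paternally expressed genes such as Mest, Peg3, Plagl1 and Dlk1 favour fetal growth or keep progenitors undifferentiated, and maternally expressed genes such as H19 and Grb10 restrain growth. Several are high in embryonic mesenchyme and decline after birth. The counts used here do not separate the parental copies, so they give the summed RNA of both.

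Libraries held between 10377151 and 14698525 counts on genes (median 12330911). Levels are given as normalized CPM (counts relative to the library total, corrected by TMM factors over all 18 libraries), and tests used edgeR's quasi-likelihood test with Benjamini-Hochberg adjustment over all genes. A gene is called at an adjusted p under 0.05. The siRNA targets were lower in Y/T dKD+FGF2 than in Ctrl+FGF2 on both days. Yap1 was at a log2 fold change of -0.96 at d2.5 and -1.12 at d5, and Wwtr1 at -0.72 and -0.80. FGF2 itself raised Wwtr1 at d2.5 (0.65, adjusted p = 1.3e-16). Against Ctrl+vehicle, Wwtr1 in Y/T dKD+FGF2 was not called at d2.5 (-0.06, adjusted p = 0.122) and was at -0.89 at d5. Yap1 in that comparison was at -1.18 at d2.5 and -1.05 at d5. All 8 markers of NC cells and their mesenchyme were detected in every group, with a summed level, mostly Prrx1, of 2150 to 2796 normalized CPM. With FGF2, 1 of the 8 was called higher and 4 lower at d2.5, where 67.6% of all genes were called. At d5, 3 were called higher and 4 lower, where 47.2% were. Skeletal muscle markers summed to at most 0.0919 normalized CPM in any library, with Myod1, Myog, Pax7 and Ckm at 0 counts. Endothelial markers, mostly Pecam1, summed to 2.78 to 3.87 in Ctrl+vehicle and 0.735 to 1.55 in Ctrl+FGF2 at d2.5, and to 0.603 to 0.750 and 1.26 to 1.93 at d5. Pecam1, the only one tested, was lower with FGF2 at d2.5 (-1.55) and higher at d5 (1.4), the directions of Mest and Peg3. Cdh5, a defining endothelial marker, was at 0 counts. Epithelial markers summed to at most 2.32, and Epcam, the only one tested, was higher with FGF2 at d2.5 (2.08). Blood markers, mostly Cd68, summed to 3.90 to 4.59 in Y/T dKD+FGF2 at d5 against 1.38 to 2.77 in Ctrl+FGF2. Adipocyte markers, mostly Fabp4, summed to 25.2 to 35.5 at d2.5 and to 4.40 to 11.4 at d5. The part of cells expressing Pecam1, Epcam, Cd68 or Fabp4 in the results was not tested. In bulk RNA, fewer cells of a type and less RNA per cell cannot be told apart.

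H19 (chr7:142575529-142578143, minus strand) and Mest (chr6:30723547-30748465, plus strand, GENCODE M21 on GRCm38) had the largest fold changes with FGF2 at d2.5 among the 9 genes. Both loci also carry a microRNA, as do Meg3 and Rian, which have 2 and 4 annotated within their spans. The mature forms of miR-675, cut from the H19 RNA, and miR-335, which lies within Mest, are shown with the seed (bases 2 to 8) in capitals, as given by RefSeq for GRCm38.p6. The libraries measure the host RNAs and not these microRNAs. None of the 4 seeds is shared.
miR-675-5p: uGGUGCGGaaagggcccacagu
miR-675-3p: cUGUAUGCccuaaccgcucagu
miR-335-5p: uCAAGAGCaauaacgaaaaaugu
miR-335-3p: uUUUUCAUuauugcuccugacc

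Promoter windows from RefSeq (GRCm38.p6, 250 bases before to 50 after a start) were found for 8 of the 9 genes, 12 windows in all. They were searched on both strands for GGAATG, a TEAD motif (TEAD factors carry Yap and Taz on DNA), for TGANTCA, an AP-1 motif, and for GGGGCCCC, a Plagl1 motif. The motifs do not overlap in these windows. GGAATG was present in 2 of the 12 windows, those of Rian and Peg3, and in 14.7% of all 32851 mouse promoter windows of this length. GGGGCCCC was present in the Peg3 window alone among the 12 and in 1.08% of all windows, and TGANTCA in none of the 12 and in 7.81% of all windows. The 250 bases before the start are shown for Rian, Peg3, Plagl1 and Mest, the genes whose response to the knockdown differed between the days, 5′ to 3′ along the gene with matches in capitals. These are chr12:109603695-109603944 on the plus strand for Rian, chr7:6730420-6730669 on the minus strand for Peg3, chr10:13090582-13090831 on the plus strand for Plagl1 and chr6:30737800-30738049 on the plus strand for Mest, which has 3 windows, none with a match.
Rian: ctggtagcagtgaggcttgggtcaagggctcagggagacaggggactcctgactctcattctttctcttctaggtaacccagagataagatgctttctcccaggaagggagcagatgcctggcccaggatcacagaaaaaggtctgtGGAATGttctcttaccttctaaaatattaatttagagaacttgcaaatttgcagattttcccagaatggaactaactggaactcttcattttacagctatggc
Peg3: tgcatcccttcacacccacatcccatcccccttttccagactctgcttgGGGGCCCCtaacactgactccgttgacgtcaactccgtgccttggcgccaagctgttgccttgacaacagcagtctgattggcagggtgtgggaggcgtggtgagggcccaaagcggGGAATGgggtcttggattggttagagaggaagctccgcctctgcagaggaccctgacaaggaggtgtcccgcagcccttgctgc
Plagl1: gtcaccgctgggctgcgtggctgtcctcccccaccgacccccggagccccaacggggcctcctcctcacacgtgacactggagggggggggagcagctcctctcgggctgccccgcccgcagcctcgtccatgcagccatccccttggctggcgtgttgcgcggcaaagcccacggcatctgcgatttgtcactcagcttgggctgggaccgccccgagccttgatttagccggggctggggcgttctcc
Mest: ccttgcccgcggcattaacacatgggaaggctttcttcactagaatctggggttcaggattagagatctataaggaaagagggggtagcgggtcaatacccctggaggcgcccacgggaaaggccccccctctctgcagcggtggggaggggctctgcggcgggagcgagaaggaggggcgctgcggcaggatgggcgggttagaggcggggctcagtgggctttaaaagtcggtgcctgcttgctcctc
The Plagl1 and Mest stretches hold 19 and 14 CpG sites, the sites at which imprinting marks are laid, the Peg3 stretch holds 8 and the Rian stretch 0. A match is a description of the letters and does not show binding.

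Levels were compared between genes per kilobase of exon, using the union of all annotated exons. This overstates the length of any single transcript of Meg3 (18.1 kb) and Rian (18.2 kb). It can do so for the other genes too, such as Dlk1 (5.66 kb) and Ndn (3.69 kb), so the order of genes with close levels depends on the lengths used. In Ctrl+vehicle at d2.5, Grb10 stood highest at 104 ± 0.869 normalized CPM per kb (SD, n = 3), followed by H19 at 11.8 ± 5.27, Mest at 7.63 ± 0.877, Plagl1 at 4.94 ± 0.222, Rian at 2.36 ± 0.145, Meg3 at 1.22 ± 0.301, Peg3 at 0.543 ± 0.0679, Ndn at 0.438 ± 0.0572 and Dlk1 at 0.217 ± 0.0193. The libraries of H19 and Mest overlapped in that order, as did those of Peg3 and Ndn, and the other neighbours did not. In Ctrl+FGF2 at d2.5 the order was Grb10, Plagl1, Rian, H19, Mest, Meg3, Dlk1, Ndn and Peg3, where the neighbours from Mest to Ndn overlapped. After the knockdown H19 moved ahead of Rian and Dlk1 ahead of Mest, with overlapping libraries for H19 and Rian, for Mest and Meg3 and for Meg3 and Ndn. At d5 Mest had moved to the top in every group, at 183 ± 25.3 in Ctrl+vehicle, 228 ± 16.3 in Ctrl+FGF2 and 110 ± 7.61 normalized CPM per kb after the knockdown. Grb10 came next in all 3 groups at 90.7 ± 0.750, 90.3 ± 3.47 and 73.5 ± 1.22, and H19, Plagl1, Rian, Meg3, Peg3, Ndn and Dlk1 followed in that order. Ndn and Dlk1 overlapped in Ctrl+vehicle and, with Peg3, in the knockdown libraries, and no neighbours overlapped in Ctrl+FGF2. The members thus spanned a range from well-expressed RNAs to Dlk1 and Ndn, which had between 3 and 53 and between 6 and 26 raw counts in a library.

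**Figure D1:**
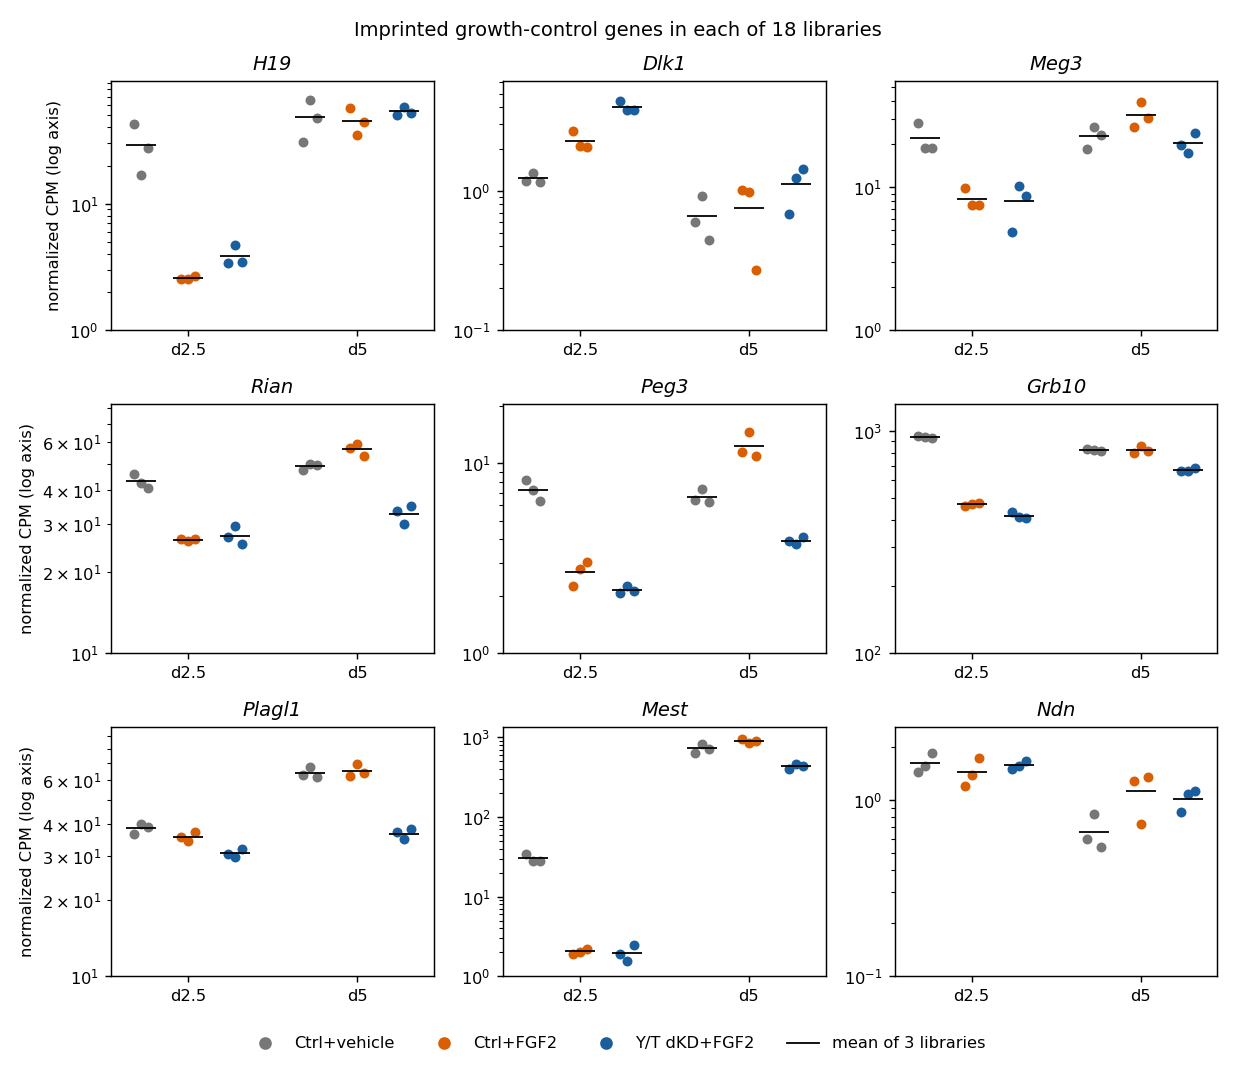
Normalized CPM (log axis, with its own range in each panel) of the 9 genes in each of the 18 libraries, with Ctrl+vehicle in grey, Ctrl+FGF2 in orange and Y/T dKD+FGF2 in blue at d2.5 and d5; the bar is the mean of 3 libraries. At d2.5 the 3 Ctrl+FGF2 libraries of Mest lie between 1.90 and 2.21 against 27.9 to 34.1 in Ctrl+vehicle, and at d5 all 9 Mest libraries lie between 399 and 963.

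**Figure D2:**
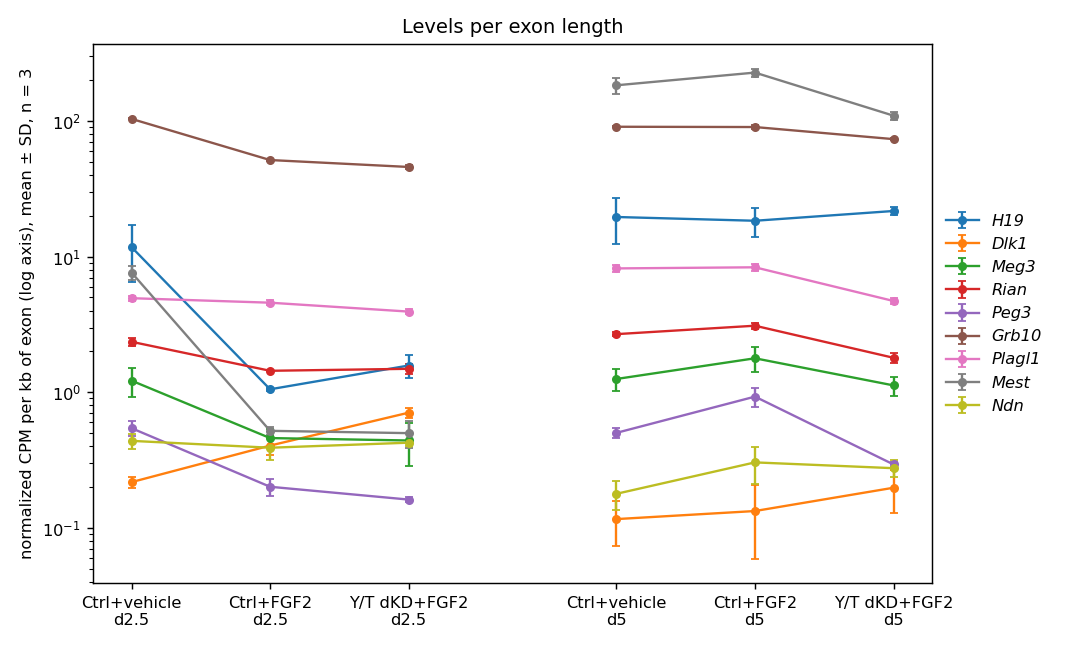
Mean normalized CPM per kb of exon (log axis) of each gene in the 6 groups, with bars of ± 1 SD over 3 libraries. Grb10 heads the order at d2.5 (45.8 to 104) and Mest at d5 (110 to 228).

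At d2.5, FGF2 lowered most of these genes. Compared with Ctrl+vehicle, 7 of the 9 were called, where 67.6% of the 13677 genes tested were called. Mest, H19, Peg3, Meg3, Grb10 and Rian fell and Dlk1 rose, and Plagl1 and Ndn were not called. The median log2 fold change of the 9 was -1.02, beside 0.0022 over all genes tested. At d5 the same comparison called 4 of the 9, all of them higher with FGF2 (Peg3, Meg3, Mest and Rian), where 47.2% of 13304 genes were called, and the median of the 9 was 0.22 beside 0.016 over all genes.

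The knockdown of Yap and Taz lowered most of these genes at d5, while the values at d2.5 went in both directions. Y/T dKD+FGF2 against Ctrl+FGF2 called 3 of the 9 at d2.5 (Dlk1 higher, Grb10 and Plagl1 lower), where 24.5% of genes were called, with a median of -0.06 beside 0.0013 over all genes. Mest and H19, not called there, had 20 to 33 and 35 to 61 counts a library in these groups, which limits what could be detected. At d5 it called 6 of the 9, all lower (Peg3, Mest, Plagl1, Rian, Meg3 and Grb10), where 31.7% of genes were called, with a median of -0.69 beside 0.0034. The FGF2 and knockdown comparisons of a day share its Ctrl+FGF2 libraries, so their values are given side by side.

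**Figure D3:**
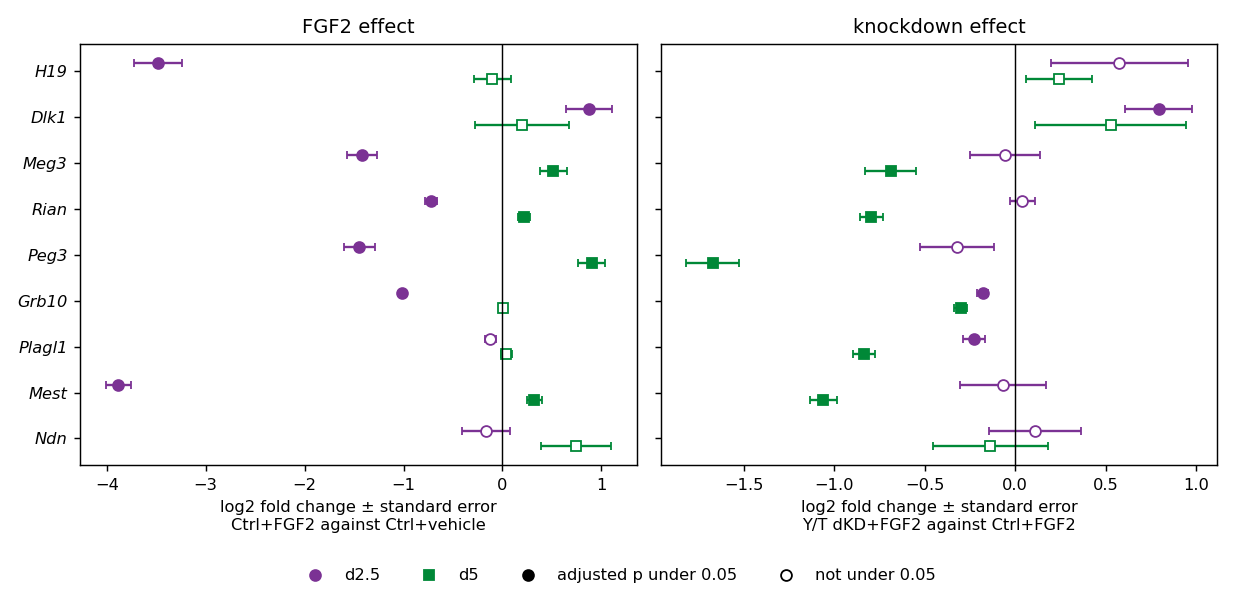
Log2 fold change ± standard error of each gene for Ctrl+FGF2 against Ctrl+vehicle (left) and Y/T dKD+FGF2 against Ctrl+FGF2 (right), at d2.5 (circles) and d5 (squares); filled symbols have an adjusted p under 0.05. With FGF2, Mest lies at -3.88 at d2.5 and 0.32 at d5, and with the knockdown at -0.07 and -1.06.

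Mest (Peg1) encodes a protein of the alpha/beta hydrolase family at the endoplasmic reticulum and is active from the paternal copy in embryonic mesoderm. At d2.5 its levels were 34.1, 27.9 and 28.4 normalized CPM in Ctrl+vehicle, 1.90, 2.04 and 2.21 in Ctrl+FGF2, with 1.90, 1.56 and 2.45 in the Y/T dKD+FGF2 libraries. Every Ctrl+vehicle library was far above every library with FGF2, while the Ctrl+FGF2 and knockdown libraries overlapped. The level with FGF2 was 14.7-fold lower (log2 fold change -3.88 ± 0.129 SE, adjusted p = 5.11e-22) and the knockdown left it at -0.07 ± 0.237 from Ctrl+FGF2 (adjusted p = 0.874). At d5 the levels were 633, 831 and 707 in Ctrl+vehicle, 963, 834 and 897 in Ctrl+FGF2, with 399, 458 and 439 normalized CPM in the Y/T dKD+FGF2 libraries. The 3 groups did not overlap: Ctrl+FGF2 was highest, by a narrow margin over Ctrl+vehicle replicate 2, and the knockdown was lowest. FGF2 raised Mest by 0.32 ± 0.0724 (adjusted p = 0.00131) and the knockdown lowered it, at a log2 fold change of -1.06 ± 0.0739 (adjusted p = 6.30e-09), 2.09-fold. Copg2 covers 912 bases of Mest exons on the opposite strand, and the deposited counts that ignore strand hold 55.9% as many Mest reads as the reverse strand counts, between 52.3% and 100% by library. With those counts the 3 called values of Mest were -3.64, 0.42 and -1.09.

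Peg3 (chr7:6703892-6730431, minus strand) encodes a large zinc finger protein active from the paternal copy and known for effects on growth and maternal behaviour. At d2.5 its levels were 8.15, 7.23 and 6.34 normalized CPM in Ctrl+vehicle, 2.25, 2.77 and 3.01 in Ctrl+FGF2, with 2.07, 2.26 and 2.13 in the Y/T dKD+FGF2 libraries. Ctrl+vehicle stood apart from both groups with FGF2, which touched each other. FGF2 lowered Peg3, at a log2 fold change of -1.45 ± 0.155 (adjusted p = 1.19e-09), and the knockdown value was -0.32 ± 0.207 (adjusted p = 0.274). At d5 the levels were 6.43, 7.33 and 6.28 in Ctrl+vehicle, 11.5, 14.7 and 11 in Ctrl+FGF2, with 3.91, 3.74 and 4.07 in the Y/T dKD+FGF2 libraries. No groups overlapped, and the knockdown libraries were below Ctrl+vehicle as well as below Ctrl+FGF2. FGF2 raised Peg3 by 0.90 ± 0.133 (adjusted p = 2.33e-05), and the knockdown value was -1.67 ± 0.147 (adjusted p = 1.06e-07), 3.19-fold lower, the largest fall among the 9 genes in that comparison.

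Plagl1, also called Zac1 (chr10:13060504-13131694, plus strand), encodes a zinc finger transcription factor active from the paternal copy and known to regulate other imprinted genes. At d2.5 its levels were 36.7, 40.1 and 39.0 normalized CPM in Ctrl+vehicle, 35.6, 34.3 and 37.4 in Ctrl+FGF2, with 30.6, 29.7 and 32 in the Y/T dKD+FGF2 libraries. The 2 control groups overlapped and the knockdown libraries lay below both. The FGF2 value was -0.12 ± 0.0583 (adjusted p = 0.0665). It was called without Ctrl+vehicle replicate 1, at -0.16 (adjusted p = 0.0240). The knockdown lowered Plagl1, at -0.23 ± 0.0620 (adjusted p = 0.00700), a call lost without Ctrl+FGF2 replicate 3 (-0.20, adjusted p = 0.0527). At d5 the levels were 62.7, 67.8 and 61.5 in Ctrl+vehicle, 62.4, 69.6 and 63.7 in Ctrl+FGF2, with 37.3, 34.9 and 38.2 in the Y/T dKD+FGF2 libraries. The control groups again overlapped, with an FGF2 value of 0.04 ± 0.0569 (adjusted p = 0.591), and every knockdown library was far below them. Plagl1 was 1.78-fold lower with the knockdown (-0.84 ± 0.0612, adjusted p = 1.21e-08).

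Dlk1 and Ndn were weakly expressed. Dlk1 (chr12:109452823-109463336, plus strand) encodes a membrane protein with EGF-like repeats that holds back the differentiation of fat cell precursors. At d2.5 its levels were 1.17, 1.36 and 1.16 normalized CPM in Ctrl+vehicle, 2.68, 2.11 and 2.07 in Ctrl+FGF2, with 4.39, 3.81 and 3.79 in the Y/T dKD+FGF2 libraries. The 3 groups were separate and stepped upward in that order. FGF2 raised Dlk1 by 0.87 ± 0.233 (adjusted p = 0.00151) and the knockdown raised it further by 0.79 ± 0.186 (adjusted p = 0.00197), the opposite direction to the other genes called at d2.5. At d5 the levels were 0.603, 0.917 and 0.449 in Ctrl+vehicle, 1.01, 0.977 and 0.269 in Ctrl+FGF2, with 0.680, 1.25 and 1.43 in the Y/T dKD+FGF2 libraries, where all groups overlapped and rested on 3 to 15 counts a library. Neither comparison called Dlk1 at d5 (0.20 ± 0.472, adjusted p = 0.756, and 0.53 ± 0.419, adjusted p = 0.374), and these counts limit what could be detected. Ndn, or necdin (chr7:62346569-62350262, plus strand), encodes a MAGE-family protein that restrains the cell cycle in neurons. Its levels lay between 1.20 and 1.85 normalized CPM at d2.5 and between 0.539 and 1.35 at d5, with overlapping control groups on both days and knockdown libraries above Ctrl+vehicle at d5. None of its FGF2 and knockdown values was called; the FGF2 value at d5 was 0.74 ± 0.354 (adjusted p = 0.0951) and was called without Ctrl+FGF2 replicate 2 (0.99, adjusted p = 0.0359).

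H19 is a long noncoding RNA made from the maternal copy, next to the growth factor gene Igf2, and restrains growth. At d2.5 its levels were 42.5, 16.7 and 27.5 normalized CPM in Ctrl+vehicle, 2.54, 2.55 and 2.67 in Ctrl+FGF2, with 3.40, 4.74 and 3.47 in the Y/T dKD+FGF2 libraries. Ctrl+vehicle libraries differed from each other more than those of the other groups, yet the lowest of them was above every library with FGF2, and the knockdown libraries were all above Ctrl+FGF2. H19 was 11.2-fold lower with FGF2 (-3.48 ± 0.247, adjusted p = 9.77e-14). The knockdown value was 0.58 ± 0.380 (adjusted p = 0.290), and it was called without Ctrl+vehicle replicate 1 (0.57, adjusted p = 0.0451), which enters this comparison mainly through the estimate of the spread. At d5 the levels were 30.7, 66.3 and 47.7 in Ctrl+vehicle, 56.7, 34.5 and 44.5 in Ctrl+FGF2, with 50.4, 57.5 and 52.3 in the Y/T dKD+FGF2 libraries. All 3 groups overlapped, with -0.10 ± 0.187 for FGF2 (adjusted p = 0.675) and 0.24 ± 0.184 for the knockdown (adjusted p = 0.351). Genes on the opposite strand cover 141 bases of H19 exons. The deposited counts that ignore strand hold 75.1% as many H19 reads as the reverse strand counts, between 70.5% and 85.0% by library. Igf2 itself had 22 counts in all 18 libraries together, 21 of them at d5, and was not tested.

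Grb10 (chr11:11930508-12038683, minus strand) encodes an adaptor that binds the insulin and IGF1 receptors and limits growth; it is made from the maternal copy in most tissues and from the paternal copy in neurons. At d2.5 its levels were 948, 947 and 933 normalized CPM in Ctrl+vehicle, 458, 470 and 477 in Ctrl+FGF2, with 432, 410 and 408 in the Y/T dKD+FGF2 libraries. The groups were far apart relative to their spread. FGF2 lowered Grb10 2.03-fold (-1.02 ± 0.0297, adjusted p = 1.77e-23) and the knockdown lowered it further, at -0.18 ± 0.0303 (adjusted p = 5.71e-05). At d5 the levels were 831, 825 and 818 in Ctrl+vehicle, 794, 855 and 813 in Ctrl+FGF2, with 662, 662 and 681 in the Y/T dKD+FGF2 libraries. The control groups overlapped, at 0.0055 ± 0.0349 for FGF2 (adjusted p = 0.914), and the knockdown libraries lay below both, at -0.30 ± 0.0351 (adjusted p = 3.04e-06). With library totals in place of TMM factors, which moved the median of all genes by 0.10 in the FGF2 comparison at d5, Grb10 was called there at 0.11 (adjusted p = 0.00982) and Plagl1 at 0.14 (adjusted p = 0.0365).

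Meg3 and Rian are long noncoding RNAs made from the maternal copy of the Dlk1 domain on chromosome 12 (Meg3 chr12:109541001-109571726 and Rian chr12:109603940-109661716, both on the plus strand). Rian carries 13 annotated small nucleolar RNAs and 4 microRNAs within its span. At d2.5 Meg3 was at 28.3, 18.9 and 18.9 normalized CPM in Ctrl+vehicle, 9.86, 7.57 and 7.49 in Ctrl+FGF2, with 4.89, 10.3 and 8.77 in the Y/T dKD+FGF2 libraries. Rian was at 45.8, 42.3 and 40.7, at 26.4, 25.9 and 26.4, and at 26.8, 29.4 and 25.2 in the same groups. For both RNAs Ctrl+vehicle was separate from the groups with FGF2, which overlapped each other. Meg3 fell with FGF2, at -1.42 ± 0.156 (adjusted p = 1.87e-09), as did Rian at -0.72 ± 0.0637 (adjusted p = 1.63e-11), with knockdown values of -0.06 ± 0.193 (adjusted p = 0.870) and 0.04 ± 0.0705 (adjusted p = 0.729). At d5 Meg3 was at 18.4, 26.5 and 23.1 in Ctrl+vehicle, 26.5, 39.5 and 30.6 in Ctrl+FGF2, with 19.7, 17.4 and 23.8 in the Y/T dKD+FGF2 libraries. Rian was at 47.1, 50.0 and 49.6, at 56.9, 59.2 and 53.2, and at 33.5, 29.8 and 34.8. The Meg3 control groups touched, the Rian groups were all separate, and the knockdown libraries were below Ctrl+FGF2 for both. Meg3 rose by 0.52 ± 0.139 with FGF2 (adjusted p = 0.00518) and Rian by 0.22 ± 0.0608 (adjusted p = 0.00656). The knockdown lowered Meg3, at -0.69 ± 0.141 (adjusted p = 0.00108), and Rian, at -0.80 ± 0.0643 (adjusted p = 3.89e-08). Dlk1, at the other end of this domain, went the opposite way to Meg3 and Rian with FGF2 at d2.5, and its ratio to Meg3 was 0.0582 ± 0.0154 in Ctrl+vehicle, 0.276 ± 0.00383 in Ctrl+FGF2 and 0.567 ± 0.288 after the knockdown at d2.5 (SD, n = 3, ratio of counts within a library, without length scaling).

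Y/T dKD+FGF2 was also set against Ctrl+vehicle of the same day, which differs from it in both FGF2 and siRNA. At d2.5 Y/T dKD+FGF2 against Ctrl+vehicle called 8 of the 9, all but Ndn, where 69.8% of genes were called. Dlk1 was higher at 1.67 ± 0.212 and the others were lower, from -0.35 ± 0.0612 for Plagl1 to -3.95 ± 0.135 for Mest. At d5 it called 5 of the 9, all lower, where 41.8% of genes were called: Plagl1 at -0.80 ± 0.0616, Peg3 at -0.77 ± 0.164, Mest at -0.74 ± 0.0739, Rian at -0.58 ± 0.0658 and Grb10 at -0.30 ± 0.0351. Meg3 was not called at -0.17 ± 0.150 (adjusted p = 0.386). H19 was at 0.14 ± 0.183 (adjusted p = 0.583) and was called at 0.43 (adjusted p = 0.0267) without Ctrl+vehicle replicate 2, its highest control library.

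The response to FGF2 differed between the days for 6 of the 9 genes (60.9% of 14198 genes tested in the fit of all 18 libraries), each with a more positive value at d5. The difference of the log2 fold changes, d5 minus d2.5, was 4.18 ± 0.195 for Mest, 3.35 ± 0.421 for H19, 2.32 ± 0.200 for Peg3, 1.91 ± 0.248 for Meg3, 1.00 ± 0.0461 for Grb10 and 0.92 ± 0.0898 for Rian. For Peg3, Meg3, Mest and Rian the response went from a fall to a rise, each called on its own day, and for H19 and Grb10 from a fall to a value that was not called. Dlk1, Plagl1 and Ndn were not called; Ndn was at 0.88 ± 0.416 (adjusted p = 0.0801) and was called without Ctrl+FGF2 d5 replicate 2 (1.13, adjusted p = 0.0310) or without Ctrl+FGF2 d2.5 replicate 3 (1.04, adjusted p = 0.050).

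The response to the knockdown differed between the days for 4 of the 9 genes (20.9% of genes tested), all with a more negative value at d5. The differences were -1.36 ± 0.260 for Peg3, -1.0 ± 0.359 for Mest, -0.84 ± 0.0974 for Rian and -0.61 ± 0.0876 for Plagl1. The Mest call (adjusted p = 0.0472) rests on 20 to 33 counts a library in the groups with FGF2 at d2.5 and was lost in 9 of the 18 fits that left out 1 library, with values from -1.16 to -0.81. Leaving out Ctrl+FGF2 d2.5 replicate 1, 2 or 3, Y/T dKD+FGF2 d2.5 replicate 1 or 3, Ctrl+FGF2 d5 replicate 1 or 3, or Y/T dKD+FGF2 d5 replicate 1 or 3 each ended it. Meg3 was at -0.64 ± 0.287 (adjusted p = 0.121) and was called without Y/T dKD+FGF2 d2.5 replicate 1 (-0.88, adjusted p = 0.0256), the lowest Meg3 library of all, or without Ctrl+FGF2 d5 replicate 1 (-0.76, adjusted p = 0.0481). It was also called without a filter on low counts (-0.65, adjusted p = 0.000281). Grb10 was at -0.13 ± 0.0466 (adjusted p = 0.0524), just outside the threshold, and was called in 6 of the 18 such fits, at values from -0.15 to -0.13, those without Ctrl+vehicle d2.5 replicate 1, Ctrl+vehicle d5 replicate 1 or 2, Y/T dKD+FGF2 d2.5 replicate 2 or 3, or Ctrl+FGF2 d5 replicate 1. Grb10 was called as well with DESeq2 (adjusted p = 0.0386), RLE factors (0.0439), library totals (0.0139) and at least 10 counts in every library (0.0245), at values from -0.15 to -0.13.

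From d2.5 to d5 most of these RNAs rose in the 2 groups with FGF2, while Ctrl+vehicle was mixed. In Ctrl+vehicle 7 of the 9 were called (66.4% of genes), 4 higher and 3 lower. In Ctrl+FGF2 8 of the 9 were called (80.0% of genes), 7 higher and 1 lower. In Y/T dKD+FGF2 all 9 were called (78.4% of genes), 7 higher and 2 lower. Mest rose 24.0-fold in Ctrl+vehicle (4.59 ± 0.0850), 436-fold in Ctrl+FGF2 (8.77 ± 0.124) and 218-fold in Y/T dKD+FGF2 (7.77 ± 0.133). H19 rose by 0.76 ± 0.208, 4.11 ± 0.331 and 3.78 ± 0.307 in the same groups. Its Ctrl+vehicle libraries overlapped between the days, and that value moved between 0.46 and 1.16 over the fits that left out 1 library, was not called without d5 replicate 2 (adjusted p = 0.0511) and was highest without d2.5 replicate 1. Plagl1 rose by 0.73 ± 0.0573, 0.87 ± 0.0575 and 0.26 ± 0.0658, the last of these not called with library totals in place of TMM factors (0.09, adjusted p = 0.182).

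The genes of the Dlk1 domain parted in time. Dlk1 fell in all 3 groups, at -0.88 ± 0.366, -1.58 ± 0.307 and -1.85 ± 0.256. The Ctrl+vehicle call rests on 5 to 21 counts a library and was lost without d2.5 replicate 2 (-0.80, adjusted p = 0.0936), d5 replicate 1 (-0.83, adjusted p = 0.0809) or d5 replicate 3 (-0.66, adjusted p = 0.155). Meg3 was at 0.05 ± 0.164 in Ctrl+vehicle (not called) and rose by 1.96 ± 0.182 in Ctrl+FGF2 and 1.33 ± 0.207 after the knockdown. Rian rose by 0.19 ± 0.0619, 1.11 ± 0.0649 and 0.26 ± 0.0722; its Ctrl+vehicle value turned to -0.049 with library totals, under which the median of all genes moved by -0.24. That value was also not called without d2.5 replicate 3 (0.15, adjusted p = 0.0547), and the value after the knockdown not with library totals (0.10, adjusted p = 0.204). Peg3 was at -0.12 ± 0.135 in Ctrl+vehicle (not called, but called at -0.35 with library totals), 2.21 ± 0.144 in Ctrl+FGF2 and 0.85 ± 0.201 after the knockdown. Grb10 fell, at -0.19 ± 0.0324 in Ctrl+vehicle and rose by 0.81 ± 0.0329 and 0.68 ± 0.0333 in the other groups. Ndn was lower at d5 in Ctrl+vehicle (-1.26 ± 0.302), not called in Ctrl+FGF2 (-0.38 ± 0.271) and at the threshold in Y/T dKD+FGF2 (-0.63 ± 0.280, adjusted p = 0.0489), a call lost in 6 of the 18 fits that left out 1 library, those without any of the 6 Y/T dKD+FGF2 libraries.

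Another list held genes known as imprinted, in some tissues at least, that lie in or near the domains of the members. Of the 27 found in the count files, 8 passed the filter on low counts at d2.5 and 9 at d5, and 7 had 0 counts in all 18 libraries. Whether they are imprinted in these cells was not tested. With FGF2 at d2.5, 2 rose and 2 fell (median -0.03), and at d5 3 rose and 0 fell (median 0.59). With the knockdown 1 rose and 0 fell at d2.5 (median -0.0028) and 0 rose and 3 fell at d5 (median -0.34). Of all genes tested, 67.6% and 47.2% were called with FGF2 and 24.5% and 31.7% with the knockdown, at d2.5 and d5. Cdkn1c, which encodes the CDK inhibitor p57 and is made from the maternal copy near H19, moved in the directions of Peg3. It was at 5.86 ± 0.983 normalized CPM in Ctrl+vehicle, 3.76 ± 0.401 in Ctrl+FGF2 and 2.77 ± 0.332 after the knockdown at d2.5, and at 16.2 ± 0.158, 43.0 ± 4.72 and 20.2 ± 0.951 in that order at d5 (SD, n = 3). With FGF2 it fell at d2.5, at -0.66 ± 0.155 (adjusted p = 0.000398), and rose at d5, at 1.42 ± 0.0822 (adjusted p = 3.59e-10), and with the knockdown it fell at d5, at -1.09 ± 0.0789 (adjusted p = 1.01e-08).

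Among 24 imprinted genes of other domains, 18 were tested. With FGF2, 4 rose and 6 fell at d2.5 (median -0.08) and 10 rose and 1 fell at d5 (median 0.18). With the knockdown 3 rose and 3 fell at d2.5 (median -0.0043) and 1 rose and 5 fell at d5 (median -0.08). The shares of all genes called were 67.6% and 47.2% with FGF2 and 24.5% and 31.7% with the knockdown, at d2.5 and d5. Igf2r, the receptor that clears IGF2, showed small differences: -0.06 ± 0.0391 with FGF2 at d2.5 (adjusted p = 0.188), -0.14 ± 0.0414 at d5 (adjusted p = 0.00779), and -0.13 ± 0.0399 and -0.17 ± 0.0416 with the knockdown. Rasgrf1, a paternally expressed exchange factor for Ras, rose with FGF2 at d2.5 from 1.89 ± 0.147 to 5.75 ± 0.444 normalized CPM (1.59 ± 0.171, adjusted p = 1.27e-09). At d5 it was again higher with FGF2 (1.77 ± 0.436, adjusted p = 0.0027) and lower with the knockdown (-1.10 ± 0.390, adjusted p = 0.0386), at a level below the cut of the naming rule.

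Of 14 genes for imprint maintenance and DNA methylation, 12 were tested. With FGF2, 5 rose and 4 fell at d2.5 and 3 rose and 4 fell at d5, where 67.6% and 47.2% of all genes were called. With the knockdown 5 rose and 1 fell at d2.5 and 5 rose and 0 fell at d5, where 24.5% and 31.7% were. Medians lay between -0.03 and 0.11. Uhrf1, which recruits the maintenance methyltransferase to newly copied DNA, moved opposite to Peg3: it rose with FGF2 at d2.5 (1.47 ± 0.0498, adjusted p = 8.23e-22), fell with FGF2 at d5 (-1.41 ± 0.158, adjusted p = 1.20e-06) and rose with the knockdown at d5 (1.02 ± 0.165, adjusted p = 0.000114). Tet1, an enzyme that oxidises methylated cytosine, fell with FGF2 at d2.5 (-1.40 ± 0.0997, adjusted p = 1.09e-13) and rose by 0.22 ± 0.0708 at d5 (adjusted p = 0.0155). With the knockdown Tet1 rose at d2.5 (0.45 ± 0.115, adjusted p = 0.00399) and was not called at d5 (-0.03 ± 0.0692, adjusted p = 0.76). DNA methylation was not measured here, and the part of these changes in the levels of the imprinted genes was not tested.

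**Figure D4:**
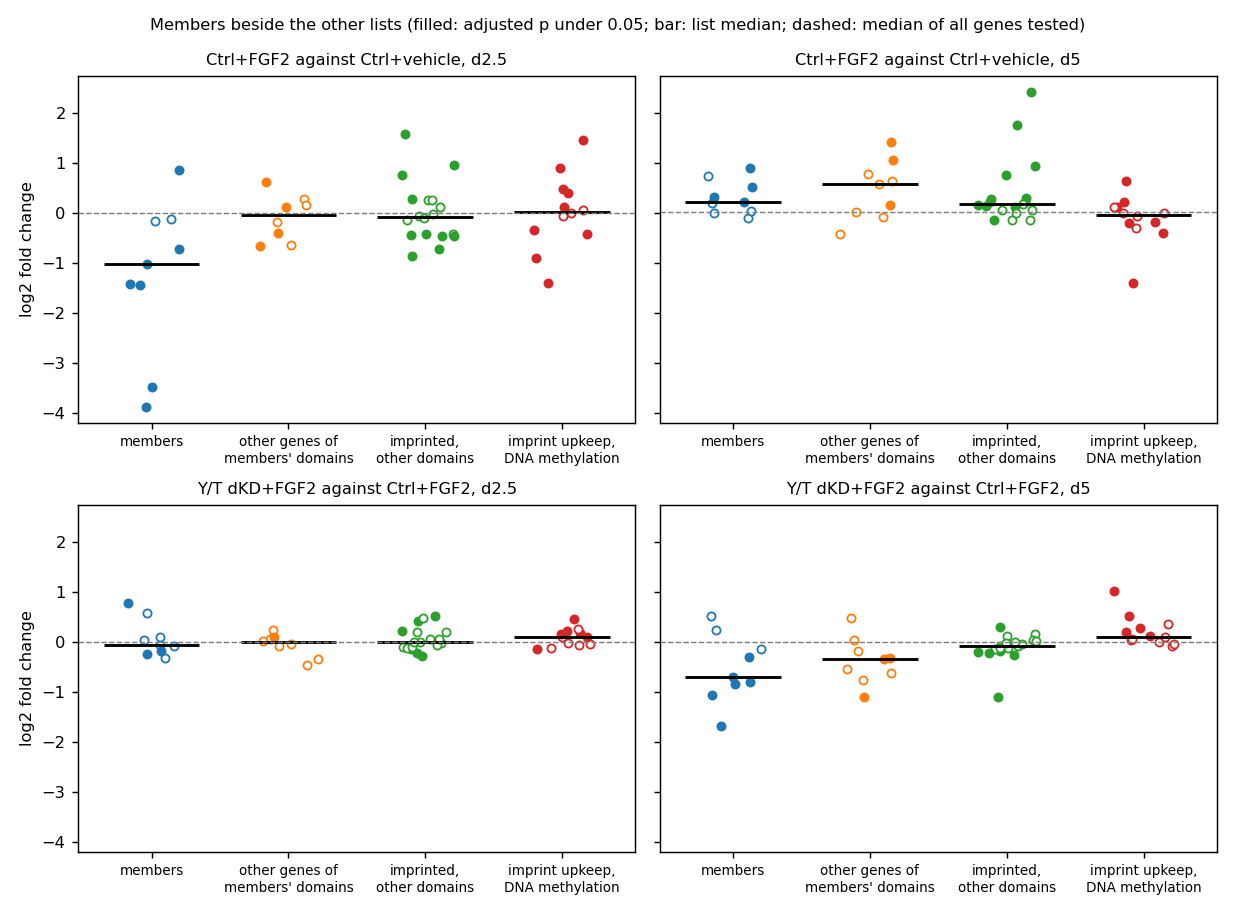
Log2 fold changes (y axis) of the 9 members and of the genes tested in 3 other lists, for FGF2 (top) and the knockdown (bottom) at d2.5 (left) and d5 (right); filled points have an adjusted p under 0.05, bars are list medians and the dashed line is the median of all genes tested. At d2.5 with FGF2 the members' median lies at -1.02 and those of the other lists between -0.08 and 0.03. Members and lists were chosen with earlier results of these data known, so this contrast is a description only.

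Genes most like each member were sought by Pearson's r of log2 CPM over the 18 libraries, among the 11731 genes whose mean log2 CPM reached 1. The libraries form 6 groups, so r mainly reflects the group means and is a description. Genes close to Mest included Prkg1 (r = 0.998) and Pygo1 (0.997). Grb10 was closest to Ehd2 (0.987), Trpv4 (0.981) and Fkbp10 (0.979), and H19 to Atf7 (0.984), Sort1 (0.982) and N4bp2 (0.981). Rian and Peg3 were among each other's 3 closest genes (r = 0.963), Rian with Plin4 (0.964) and Slc12a2 (0.955) and Peg3 with Tle6 (0.969) and Tln2 (0.967). Meg3 was closest to Slc4a3 (0.953), Parp3 (0.953) and Ctnnd1 (0.952), and Plagl1 to Rnf145 (0.954), Maoa (0.939) and Fbxl5 (0.937). The weakly expressed Dlk1 was closest to Snx5 (0.946), Rps27l (0.930) and Gins2 (0.924), and Ndn to Gfra1 (0.916), Zfp687 (0.914) and Zbtb45 (0.906).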

How the data were processed

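The authors deposited raw counts per gene for each library, unstranded and for either strand, laid out as STAR writes them. The submitters' notes name FastQC, STAR, Picard, featureCounts and mm10, without versions. The reverse strand column, 96.0% to 96.6% of stranded counts, was used, and reads on no gene (27.0% to 34.4% of a library) were left out. Identifiers were named from GENCODE M21 (55154 matched). Counts were fitted with edgeR 4.0.16 in R 4.3.3 (filterByExpr, TMM, quasi-likelihood), 9 libraries of a day for comparisons within it and all 18 for days. Standard errors were taken as |log2 fold change| over the root of the F statistic. The fits were checked on simulated counts. Alternatives were DESeq2 1.42.0, other scalings, filters, strands, thresholds and sample sets. Named are all 9 members, the siRNA targets, Igf2, Cdkn1c, Igf2r, list genes called at 2-fold whose mean log2 CPM reached 1, and the 3 genes most like each member. An item that this rule names is not reported here. Members and lists were chosen with earlier results of these data known.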

Additional observations from a re-analysis of the deposited data

Results flagged for a closer look

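A difference of the FGF2 response between the days was tested in the fit of all 18 libraries with edgeR. It passed for 6 of the 9 genes, where 60.9% of the 14198 genes tested passed. The log2 fold change at d5 minus that at d2.5 was 4.18 for Mest, 3.35 for H19, 2.32 for Peg3, 1.91 for Meg3, 1.00 for Grb10 and 0.92 for Rian. Over the fits that left out 1 library these stayed called. The same test for the knockdown response passed for 4 of the 9 genes, where 20.9% of genes tested passed. The values were -1.36 for Peg3, -1.0 for Mest, -0.84 for Rian and -0.61 for Plagl1. Of these the Mest call was lost in 9 of 18 such fits. The days are also the batches of the annotation, so a difference between days cannot be told apart from a difference between batches. Groups of 3 libraries were too small for a check of single outlying libraries.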

How the results depend on the processing

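Of the counts of called members, 107 stayed within 1.5 times over the alternatives that kept all libraries, 144 did so when 1 library was left out, and 7 moved, all by requiring at least a 2-fold change. The knockdown then called 0 members at d2.5, where 81 of 13677 genes were called, and 2 at d5, where 424 of 13304 were. At d5 FGF2 called 0 (771 genes) and the knockdown set against Ctrl+vehicle called 0 (642 genes). The comparison of days called 2 in Ctrl+vehicle (2325 of 14198 genes) and 4 in Y/T dKD+FGF2 (4247 genes). The knockdown difference between days called 1 (330 genes). With library totals Rian turned to -0.049 between days in Ctrl+vehicle, and the median of all genes moved by -0.24, -0.14 and -0.16 between days in the vehicle, FGF2 and knockdown groups. Without a filter on low counts, H19 was called with the knockdown at d2.5 (0.58, adjusted p = 0.0194) and d5 (0.24, adjusted p = 0.00126). H19 was also called at d2.5 when only the 2 groups compared were fitted (adjusted p = 0.0161), and Plagl1 with FGF2 at d2.5 with at least 10 counts in every library (-0.13, adjusted p = 0.0458) and, with library totals, for its FGF2 difference between days (0.23, adjusted p = 0.0126). DESeq2 did not call Dlk1 between days in Ctrl+vehicle (-0.88, adjusted p = 0.0622) or Ndn after the knockdown (-0.65, adjusted p = 0.12). Same-numbered replicates correlated between -0.08 and 0.16. At d5 each Ctrl+vehicle library correlated best with the same-numbered Ctrl+FGF2 library, and at d2.5 replicates 2 and 3 did. No knockdown library was so matched, and the values do not settle whether the numbers pair the libraries. The replicate block called 7, 3 and 8 members at d2.5 and 4, 6 and 5 at d5. It called 5, 8 and 8 between days, and 6 and 4 for the differences between days. Over all genes the block called 9180, 3226 and 9518 of 13677 at d2.5 and 6352, 4354 and 5681 of 13304 at d5. Between days it called 8082, 10350 and 10122 of 14198, and 8625 and 3059 for the differences between days. It lost H19 (0.25, adjusted p = 0.407) and Rian (0.15, adjusted p = 0.135) between days in Ctrl+vehicle and Ndn (-0.49, adjusted p = 0.272) after the knockdown. With at least 10 counts in every library, Dlk1 and Ndn gave no value at d5 or between days.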
